A study of Mus musculus with 35 samples.

Results

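Among the 35 ATAC-seq libraries of the series, 6 come from the parental lines of its 2 gene-targeting families in the naive state: 3 libraries of DNMT_WT and 3 of TET_WT at D0. They were chosen by their line and day labels, and their chromatin accessibility was compared over the autosomes. DNMT_WT is the unmodified parent of DNMT_KO, a line that lacks all of Dnmt1, Dnmt3a and Dnmt3b. TET_WT is the unmodified parent of TET_KO, which lacks Tet1, Tet2 and also Tet3. All 4 lines are mouse embryonic stem cells grown in 2i/Lif, and D0 is the culture before differentiation. The parental lines at D1 and D2 of differentiation and the 2 knock-out lines at D0, each with 3 libraries, served for comparison. The D1 and D2 libraries are not in the D0 fit, whereas the knock-out D0 libraries are in it, where they share its estimate of the spread and the choice of tiles. Neither parental line carries a deleted gene by its labels, so the comparison is between 2 wild-type parents. The labels give no strain, sex, clone or passage for either line, and do not say whether replicates are separate cultures, so the p-values below measure only the spread between these libraries.

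ATAC-seq uses the Tn5 transposase to insert adapters into open DNA, so reads collect at promoters and enhancers, while a thinner background of reads falls on the rest of the genome and follows how much DNA of each region is in the cells. Mouse embryonic stem cells in 2i/Lif (inhibitors of MEK and GSK3 with leukaemia inhibitory factor) hold a naive, pre-implantation-like state run by factors such as Nanog, Klf4 and Esrrb. DNMT enzymes write 5-methylcytosine at CpG and TET enzymes oxidise it. Naive cells in 2i/Lif have little methylation, which returns as they leave the naive state.

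The unit throughout is the 2-kb tile, with values in log2 RPKM (reads per kilobase, scaled to the library total). The DNMT_WT libraries at D0 held 6113989, 5129083 and 7620098 reads in tiles and the TET_WT libraries 23686796, 10350700 and 12099135, so every TET_WT library was deeper than every DNMT_WT one. The families were also scaled differently before deposit. Dividing the reads recovered from a library's tiles by the library total behind its RPKM values gave 1.02 in each DNMT_WT library and 1.15 in each TET_WT library at D0, and the same pair of ratios at D2, but 2.04 to 2.05 in TET_WT and 2.04 in DNMT_WT at D1. D1 is therefore the day on which this ratio matched between the lines. Depth was not matched there. Autosomal reads at D1 were 5665529, 6739387 and 3660471 in DNMT_WT and 9199476, 6383025 and 7465419 in TET_WT. The D1 libraries differ in another respect: mitochondrial reads were a median of 26.9% of tile reads in DNMT_WT and 14.1% in TET_WT, with ranges that overlap, against 0% in every library of D0 and D2, and as deposited the median tested tile differed by -0.24 (log2) between the lines at D1. At D0 line, depth and scaling cannot be told apart library by library, and D1 values are given beside D0 ones for most tiles and regions named. As deposited, the median tested tile was 0.19 lower (log2) in DNMT_WT. Below, each chromosome was centred on its background and the libraries were quantile-normalised, which left that median at -0.01, and differences are relative to it. Libraries of 1 line correlated over tested tiles at r = 0.56 to 0.60 within DNMT_WT and 0.66 to 0.77 within TET_WT, against 0.49 to 0.63 between lines. These ranges overlap.

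Few single tiles differed. Of 128859 tested tiles (the most accessible 10% of autosomal tiles plus tiles with a gene start), 357 passed limma's test at an adjusted p under 0.05, which is 0.277% of them. DNMT_WT was higher in 236 (0.183%) and lower in 121 (0.0939%). The libraries of the lines did not overlap in 353 of the 357, against 17.1% of all tested tiles, and all 357 differed at least 2-fold. Both traits come from the same values as the calls, so they describe the calls and add no further evidence for them. The count moved with the setting, from 56 without TET_WT replicate 2 to 1595 with limma's voom, and values as deposited gave 379 calls of which 30.6% were higher in DNMT_WT, against 66.1% here. In simulated libraries of these depths the test recovered 43% of 4-fold and 3% of 2-fold differences, so 2-fold differences at single tiles were mostly missed. The simulation set the dispersion at 0.05, not estimated from these libraries. It placed differences only in tiles that averaged 10 or more reads, so recovery over all tested tiles was not measured.

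Calls in the opposite directions lay in different places. Those higher in DNMT_WT were far from genes: 44.5% were over 100 kb from the nearest gene start, against 11.1% of all tested tiles, 32.6% lay in a gene body against 65.4%, and 5.93% held a gene start against 15.4%. The tiles lower in DNMT_WT lay closer to genes, with a median of 6.23 kb to a start against 73.7 kb for the higher ones and 11.8 kb for all tested tiles. Of the lower tiles, 10.7% were over 100 kb from a start and 12.4% held one. The 2 sets also differ in reads. A median tile of the higher set had 58 reads summed over the DNMT_WT libraries and 41.5 over the TET_WT ones, while a median tile of the lower set had 20 and 161. Depth moves with direction here, and its part was not tested.

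The other days and the knock-out lines kept the direction of most calls. Of the 236 higher tiles, 84.7% were higher in DNMT_WT at D1 too, 85.6% at D2 and 74.6% in the DNMT_KO against TET_KO comparison. For the 121 lower tiles these shares were 85.1%, 90.1% and 91.7%. Over all tested tiles, between 54.3% and 58.8% of tiles kept their sign. Calls that passed again were fewer: the D1 comparison called 78 tiles (0.0605%; 0.038% higher and 0.0225% lower in DNMT_WT) and shared 10 higher and 8 lower ones with D0. The D2 comparison called 122 (0.0947%; 0.0349% higher and 0.0598% lower) and shared 10 and 13, and the knock-out comparison called 203 (0.158%; 0.0753% higher and 0.0823% lower) and shared 10 and 13. No shared call was in the opposite direction. In 35 of the 357 tiles (9.8%) the libraries of the families did not overlap, in the same direction, in all 3 other comparisons, against 0.336% of all tested tiles. Of these 35, 15 were higher and 20 lower in DNMT_WT.

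In 5 tiles at 4 loci the difference passed the test in all 4 comparisons. Of those described here, a tile 150.2 kb from Adcyap1, the gene of the neuropeptide PACAP, was lower in DNMT_WT. Higher were 2 adjacent tiles near Dclre1a, a nuclease of DNA crosslink repair, and a tile inside Garem1, an adaptor of growth factor signalling to MAP kinase. These tiles were picked out by their calls at D0 and in the other libraries alike, so their values are given as a description.

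At the Adcyap1 tile (chr17:93046001-93048000) normalised accessibility was -0.18, -1.43 and -0.85 log2 RPKM in the DNMT_WT libraries, from 9, 3 and 8 reads, and 1.94, 2.44 and 1.57 in the TET_WT libraries, from 120, 72 and 72 reads. The groups lie well apart, and DNMT_WT is close to the level of a tile with few reads. The difference was -2.81 ± 0.36 (log2, SE; adjusted p = 0.000112), -2.85 ± 0.36 between the knock-out lines, -3.05 ± 0.41 at D1 and -2.62 ± 0.40 at D2. The other 3 values are each within 1 SE of the D0 value. The part of depth and scaling in them was not tested.

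The tiles near Dclre1a form a run of 3 adjacent calls (chr19:56510001-56516000), from 13.2 to 17.2 kb outside the gene. In the tile of highest coordinate DNMT_WT read 0.91, 1.28 and 1.21 and TET_WT -0.99, -0.81 and -1.43. Its difference was 2.21 ± 0.37 (adjusted p = 0.00327), 2.17 ± 0.37 in the knock-out lines, 3.24 ± 0.64 at D1 and 2.82 ± 0.46 at D2. The middle tile differed by 2.01 ± 0.40 (adjusted p = 0.0171), with 3.68 ± 0.57 at D1, and the outer one by 2.04 ± 0.35 (adjusted p = 0.0035), with 2.82 ± 0.49 at D1. In the tile of highest coordinate the D1 difference was the largest of the 4, and the part of depth and scaling was not tested.

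Inside Garem1 (chr18:21128001-21130000), DNMT_WT libraries had 1.73, 1.56 and 1.17 and TET_WT libraries -0.04, 0.10 and -0.36. The difference was 1.58 ± 0.31 (adjusted p = 0.0171) at D0, 2.46 ± 0.31 in the knock-out lines, 2.12 ± 0.43 at D1 and 2.47 ± 0.34 at D2. The only other run of 3 called tiles lies in Nuggc, a nuclear GTPase of germinal-centre B cells, at chr14:65624001-65632000 and was lower in DNMT_WT. At the tile of lowest coordinate DNMT_WT libraries had 14, 8 and 14 reads and TET_WT libraries 148, 71 and 97. The difference there was -1.58 ± 0.31 (adjusted p = 0.0136), -1.87 ± 0.31 in the knock-out lines, -2.20 ± 0.43 at D1 and -1.51 ± 0.43 at D2, the last without passing the test (adjusted p = 0.197). When background was centred in 1-Mb windows in place of chromosomes, the D0 calls of Garem1 (1.24, adjusted p = 0.0895) and of this Nuggc tile (-1.45, adjusted p = 0.0539) were lost, and so was that of the middle Dclre1a tile (1.81, adjusted p = 0.0527).

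**Figure D1:**
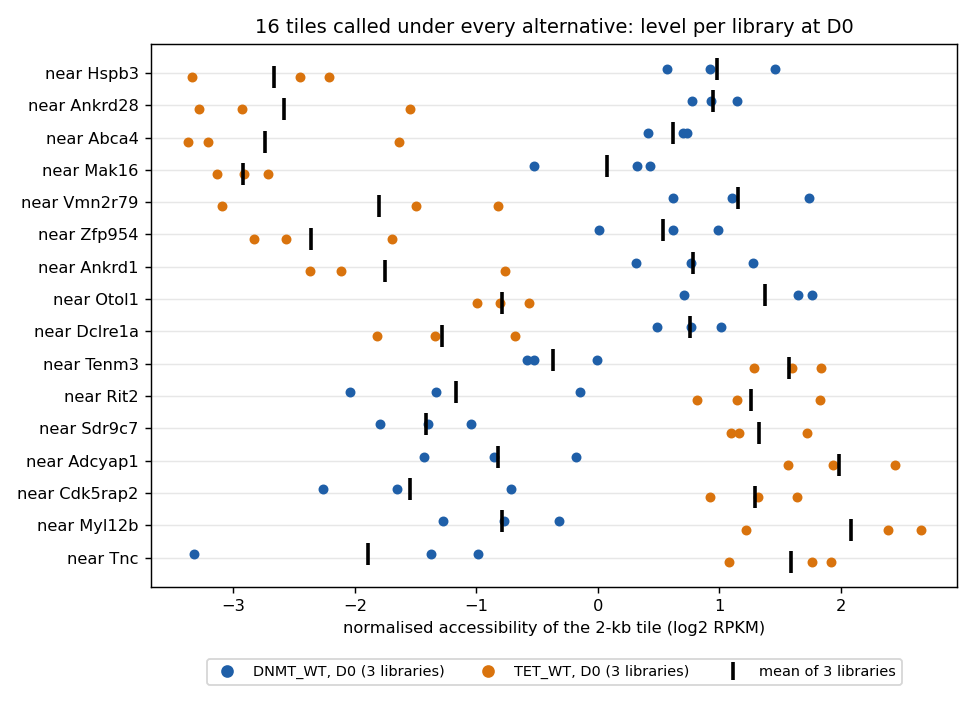
Normalised accessibility (log2 RPKM) of 16 of the 17 named 2-kb tiles whose call at D0 was kept under all 20 alternatives in which they were tested, by nearest gene. Points are the 3 DNMT_WT and 3 TET_WT libraries and black ticks their means. The lines do not overlap at these tiles, which the naming rule required only of the largest calls and promoters.

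Of the named tiles, 17 kept their call under each alternative processing and under the removal of each library, 9 higher and 8 lower in DNMT_WT. The plot of levels by library holds 16 of them. Non-overlap at D0 was required only of tiles named as the largest calls or promoters, not of those named by the other comparisons. The largest difference was 60.3 kb from Hspb3, a small heat-shock protein of muscle (chr13:113724001-113726000). DNMT_WT libraries read 0.92, 0.57 and 1.45 there, and TET_WT libraries -2.22, -2.45 and -3.34, a difference of 3.65 ± 0.38 (adjusted p = 2.94e-06). It was 4.02 ± 0.46 at D1 (adjusted p = 7.86e-06) and 4.57 ± 0.36 at D2 (adjusted p = 2.22e-09).

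The knock-out lines did not show the Hspb3 difference. DNMT_KO had 20, 15 and 14 reads there and TET_KO 22, 21 and 16, a difference of 0.30 ± 0.38, and the test of the parental difference against the knock-out one gave 3.35 ± 0.53 (limma, adjusted p = 0.0141). TET_WT had 12, 4 and 3 reads there at D0, fewer than each TET_KO library of the same family, although it was the deeper line. The same test was passed by 4 of the 128859 tiles (0.0031%), and the Hspb3 tile was the 1 of the 357 D0 calls among them. A tile inside Abca4, the retinal lipid transporter, was also higher in DNMT_WT on all 3 days, by 3.35 ± 0.46 (adjusted p = 0.000237), 2.54 ± 0.45 and 2.89 ± 0.51, with 0.50 ± 0.46 in the knock-out lines, but there the difference between the 2 contrasts was not among the 4 that passed.

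Other tiles of the 17 followed the families less evenly. A tile 87.4 kb from Ankrd28, a subunit of a protein phosphatase, was higher in DNMT_WT by 3.54 ± 0.44 (adjusted p = 0.000103), by 2.61 ± 0.44 in the knock-out lines and by 2.95 ± 0.58 at D1, and at D2 it differed by 0.59 ± 0.56. A tile 274.3 kb from Rit2, a neuronal small GTPase, was lower by 2.43 on the log2 scale (-2.43 ± 0.39, adjusted p = 0.00199), with -2.31 ± 0.38 at D1, -2.01 ± 0.43 at D2 and -1.44 ± 0.39 in the knock-out lines. Over the 17, 7 passed the test again at D1, 8 at D2 and 5 in the knock-out lines, and 13 had the same sign in all 4 comparisons. Of all tested tiles, 0.0605%, 0.0947% and 0.158% passed in these 3 comparisons. Some of the 17, such as those of Adcyap1 and Rit2, were named because their libraries did not overlap in the other comparisons. The counts are thus partly set by that choice and are a description only.

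**Figure D2:**
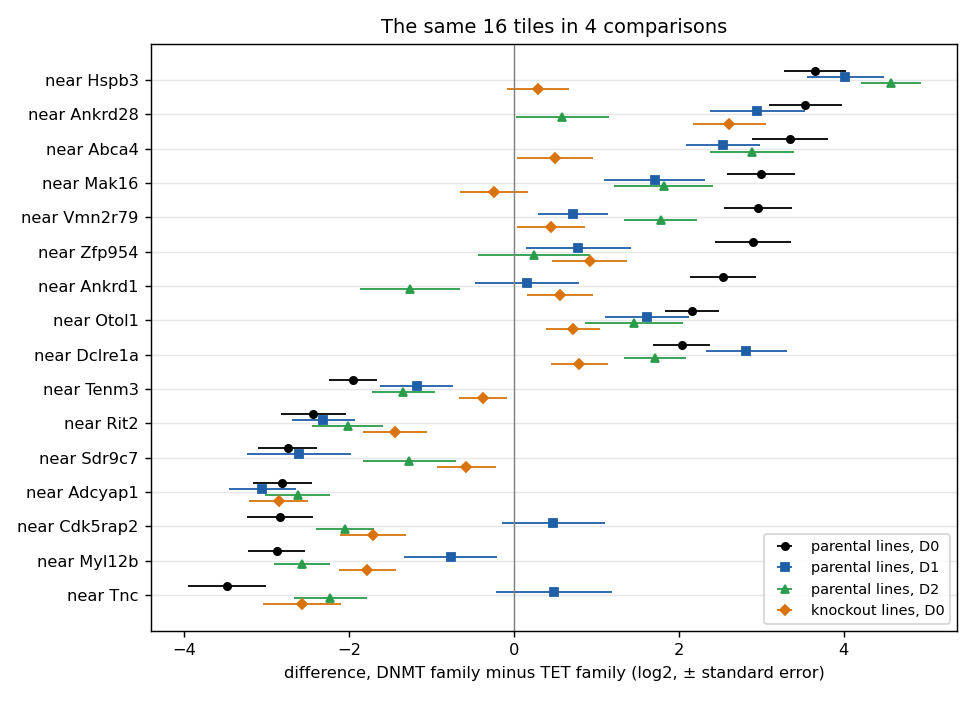
Difference between the DNMT and TET families (log2, with its standard error) at the same 16 tiles in the parental lines at D0, D1 and D2 and in the knock-out lines at D0. Adcyap1 holds in all 4 sets, Hspb3 and Abca4 in the parental lines on 3 days, and Tnc and Cdk5rap2 lie near 0 at D1.

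A group of tiles was lower in DNMT_WT at D0 and D2 and in the knock-out lines, but not at D1. The clearest is 449.0 kb from Tnc, the gene of the matrix protein tenascin C (chr4:64496001-64498000). TET_WT libraries had 121, 48 and 49 reads there at D0 and DNMT_WT libraries 5, 1 and 5, whereas at D1 TET_WT had 7, 1 and 3 and DNMT_WT 2, 5 and 2. The differences were -3.48 ± 0.47 at D0 (adjusted p = 0.000226), -2.57 ± 0.47 in the knock-out lines, -2.23 ± 0.44 at D2 and 0.49 ± 0.71 at D1. At D1 the tile is near empty in both lines.

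The same held for a tile in Cdk5rap2, a centrosomal protein, with -2.84 ± 0.40 at D0 and 0.48 ± 0.62 at D1, and for a tile 65.1 kb from Cr2, the complement receptor, with -2.38 ± 0.37 and 0.19 ± 0.57. The adjacent called tile, 63.1 kb from Cr2, did not share it. That tile differed by -1.11 ± 0.22 at D0 and kept its direction at D1 with -0.84 ± 0.24, without passing the test. The pattern was also seen at the promoter of Kpna1, an importin of nuclear transport. Kpna1 had 38, 14 and 50 reads in DNMT_WT and 299, 148 and 157 in TET_WT at D0, and 27, 26 and 21 against 35, 41 and 41 at D1. Its differences were -1.58 ± 0.26 at D0 (adjusted p = 0.00242), -1.36 ± 0.26 in the knock-out lines, -1.30 ± 0.24 at D2 and 0.07 ± 0.28 at D1. In all, 8 called tiles had non-overlapping libraries at D0, at D2 and in the knock-out lines with the opposite sign at D1. The 8 were picked out by this pattern, and the share of all tested tiles that show it was not counted. They are given as a description only. The scaling of the families moves with these values, and its part was not tested. The test of the D0 difference against the D1 difference passed at none of the 128859 tiles with limma (7532 at an unadjusted p under 0.05).

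Promoters differed at few genes. Of 19878 tiles that hold a gene start, 29 passed the test (0.146%), 14 higher (0.0704%) and 15 lower (0.0755%) in DNMT_WT. Among the 10 with the largest fall, 6 are on distal chromosome 4: H6pd, which makes NADPH in the endoplasmic reticulum, Pik3cd, the catalytic PI3-kinase subunit of leukocytes, Rere, a corepressor of the atrophin family, Mrpl20, a mitochondrial ribosomal protein, and the zinc-finger genes Zfp933 and Zfp982. The others were Gpr1, a chemerin receptor, Nubp1, which assembles iron-sulphur clusters, the histone gene H2bc14, and Kpna1. The 10 largest rises were at Gm10406, Gm10499, Gm51571, Drd3, a dopamine receptor, Jakmip2, Fbxl21, Wdr17, Marchf11, Gja1, the gap junction protein connexin 43, and Car10.

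A 2-kb tile does not resolve a promoter, but the sequence before the annotated start shows which kind of start the called tiles hold. Of the genes printed, only Rere has its outer annotated end within the called tile. The starts used for H6pd, Pik3cd and Gpr1 (150003236, 149698708 and 63210716) lie inside genes that end at 150009023, 149702566 and 63223278. These need not be the main promoters of those genes. The following are the 250 bases before the annotated start of promoters that fell (H6pd, Pik3cd, Rere and Gpr1) and rose (Gm10406 and Wdr17) in DNMT_WT, each within its called tile, from RefSeq on GRCm38.p6. They are written 5′ to 3′ along the gene with each CpG, the site that DNMT and TET enzymes act on, in capitals.
H6pd, chr4:150003237-150003486, minus strand: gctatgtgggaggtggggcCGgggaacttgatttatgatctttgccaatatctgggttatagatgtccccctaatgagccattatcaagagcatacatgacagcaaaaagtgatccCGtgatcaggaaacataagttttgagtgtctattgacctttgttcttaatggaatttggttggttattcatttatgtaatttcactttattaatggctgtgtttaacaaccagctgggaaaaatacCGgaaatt
Pik3cd, chr4:149698709-149698958, minus strand: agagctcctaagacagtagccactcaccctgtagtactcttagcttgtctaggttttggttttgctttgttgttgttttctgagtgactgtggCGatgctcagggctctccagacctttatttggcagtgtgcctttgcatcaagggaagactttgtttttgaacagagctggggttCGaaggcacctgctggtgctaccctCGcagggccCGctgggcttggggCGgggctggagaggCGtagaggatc
Rere, chr4:150281666-150281915, plus strand: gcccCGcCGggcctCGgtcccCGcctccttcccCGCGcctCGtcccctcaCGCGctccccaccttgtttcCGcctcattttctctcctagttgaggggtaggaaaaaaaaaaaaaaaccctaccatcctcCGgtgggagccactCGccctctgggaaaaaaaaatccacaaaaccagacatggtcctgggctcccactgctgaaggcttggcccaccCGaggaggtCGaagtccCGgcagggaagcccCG
Gpr1, chr1:63210717-63210966, minus strand: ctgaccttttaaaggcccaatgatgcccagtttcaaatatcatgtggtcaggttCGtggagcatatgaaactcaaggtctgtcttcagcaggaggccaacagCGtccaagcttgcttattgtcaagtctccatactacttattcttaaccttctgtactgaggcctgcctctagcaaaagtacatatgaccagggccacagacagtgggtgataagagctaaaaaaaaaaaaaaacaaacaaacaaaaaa
Gm10406, chr14:7027450-7027699, minus strand: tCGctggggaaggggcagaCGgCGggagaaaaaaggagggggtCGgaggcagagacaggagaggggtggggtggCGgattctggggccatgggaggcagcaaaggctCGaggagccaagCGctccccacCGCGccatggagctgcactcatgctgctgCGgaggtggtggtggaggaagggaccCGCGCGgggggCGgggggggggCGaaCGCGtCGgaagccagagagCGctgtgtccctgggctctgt
Wdr17, chr8:54724369-54724618, minus strand: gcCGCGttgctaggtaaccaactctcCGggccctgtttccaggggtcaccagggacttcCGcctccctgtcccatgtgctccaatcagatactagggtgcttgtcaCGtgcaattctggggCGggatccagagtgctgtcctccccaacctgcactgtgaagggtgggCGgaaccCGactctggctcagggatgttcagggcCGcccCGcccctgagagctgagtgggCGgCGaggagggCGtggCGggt

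The starts in the called tiles were of both CpG-rich and CpG-poor kinds, and some of them lie inside the gene. The 250 bases held 3 CpG at H6pd, 6 at Pik3cd, 16 at Rere and 2 at Gpr1, and 19 at Gm10406 and 14 at Wdr17. Over the 31396 autosomal starts of the same table the median was 6, and 56% of them held 5 or more. Of the named promoters with a sequence in the table, 7 of 9 that were higher and 7 of 9 that were lower held 5 or more CpG, with medians of 14 and 8. The motif searched is CG, which reads the same on both strands.

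Rere had 5, 3 and 7 reads in DNMT_WT and 77, 30 and 39 in TET_WT, or -0.98, -1.68 and -0.90 against 1.07, 0.90 and 0.81 log2 RPKM after normalisation. The difference was -2.11 ± 0.34 (adjusted p = 0.00199), -1.49 ± 0.42 at D1, -0.89 ± 0.35 at D2 and -0.36 ± 0.34 in the knock-out lines. H6pd differed by -2.33 ± 0.48 (adjusted p = 0.0234) and Pik3cd by -2.18 ± 0.48 (adjusted p = 0.0373), with -1.28 ± 0.51 and -1.10 ± 0.48 at D1. All 3 kept the direction in the other libraries without passing the test there.

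Gpr1, far from chromosome 4, read -1.60, -1.47 and -1.86 in DNMT_WT and 0.44, 0.56 and 0.32 in TET_WT, and differed by -2.08 ± 0.37 (adjusted p = 0.00655). It was -1.72 ± 0.37 in the knock-out lines (adjusted p = 0.042), -0.35 ± 0.38 at D1 and -0.60 ± 0.33 at D2. Gm10406 lies in an array of related predicted genes on chromosome 14 and read -0.11, 0.60 and 0.28 in DNMT_WT and -3.21, -3.56 and -1.92 in TET_WT. Its difference was 3.15 ± 0.48 (adjusted p = 0.00111), 2.17 ± 0.48 in the knock-out lines, 2.34 ± 0.55 at D1 and 1.94 ± 0.39 at D2. Reads of near-identical copies there could be split by the aligner, so the gene that carries the signal is uncertain. Wdr17 differed by 1.56 ± 0.36 (adjusted p = 0.0457) with 0.82 ± 0.34 at D1 and -0.09 ± 0.36 in the knock-out lines, and its call was lost with background centred in 1-Mb windows (1.44, adjusted p = 0.0534).

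The background between accessible tiles also differed, by less than the called tiles did. For each chromosome, the mean log2 RPKM of its background tiles was taken relative to the mean of all autosomes in the same library. Chromosome 1 stood at 0.48, 0.36 and 0.43 in DNMT_WT and -0.23, -0.20 and -0.05 in TET_WT. The difference was 0.59, with 0.59 at D1, 0.56 at D2 and 0.55 between the knock-out lines. Chromosome 14 stood at -0.18, -0.15 and -0.24 in DNMT_WT and 0.32, 0.30 and 0.34 in TET_WT, a difference of -0.51, with -0.50 at D1, -0.50 at D2 and -0.03 in the knock-out lines.

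So chromosome 1 was above the autosomal mean in DNMT_WT and chromosome 14 above it in TET_WT, with similar values on all 3 days. Chromosome 8 was high in both lines, at 0.44, 0.41 and 0.51 in DNMT_WT and 0.42, 0.47 and 0.35 in TET_WT, and did not separate them (0.04, and -0.09 at D1), although the knock-out lines differed there by 0.48. Chromosome 6 differed by -0.28 and chromosome 11 by -0.17, with -0.25 and -0.22 at D1. With 3 libraries a group, the smallest p of an exact permutation test is 0.1, so that test could not pass for a single chromosome, and the values are given as a description. Without each library in turn the chromosome 1 difference was 0.55 to 0.64 and that of chromosome 14 was -0.53 to -0.48.

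**Figure D3:**
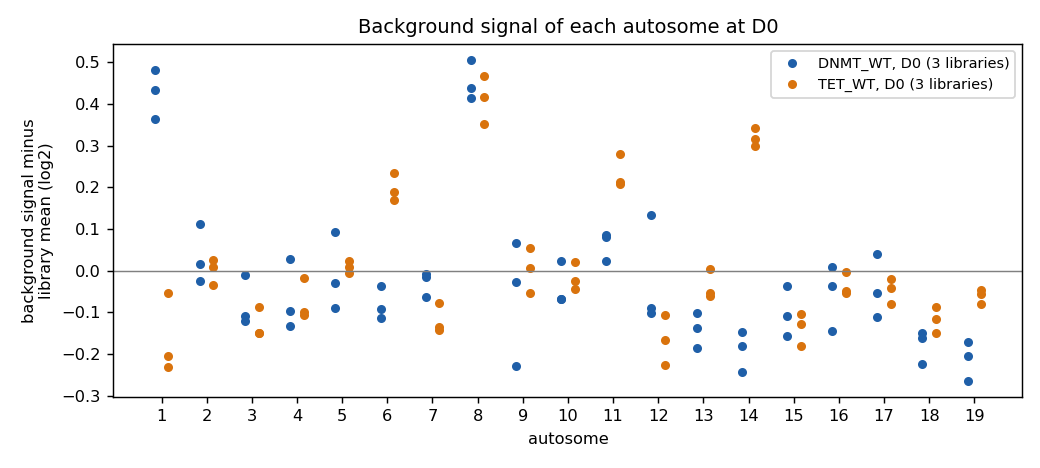
Mean background signal of each autosome minus the mean of all autosomes in the same library (log2), at D0; each point is 1 library. Chromosome 1 is higher in DNMT_WT and chromosome 14 in TET_WT, with no overlap, and chromosome 8 is near 0.4 in both lines.

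Within chromosomes, background was compared in 1-Mb windows after each chromosome was centred. Of 2406 windows, 292 passed limma's test (12.1%), 156 higher (6.48%) and 136 lower (5.65%) in DNMT_WT, and 11.2% of windows of 0.5 Mb did. Adjacent called windows that differed by 0.35 or more, a limit set after the values were seen, form 55 segments, 27 higher and 28 lower. All 55 kept their sign at D1 and at D2, and 45 kept it in the knock-out lines. The plot of segments shows D1 and the knock-out lines. The share of all windows that kept their sign was not counted, so these counts are a description. At D2, too, every DNMT_WT library was shallower than every TET_WT one, with 4886942 to 5541143 reads against 8306965 to 11922487. The part of depth and scaling in the segments was not tested. Of the 357 called tiles, 22.4% lay in a window called in the same direction, against 6.19% of all tested tiles. For the tiles lower in DNMT_WT the share was 34.7%.

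**Figure D4:**
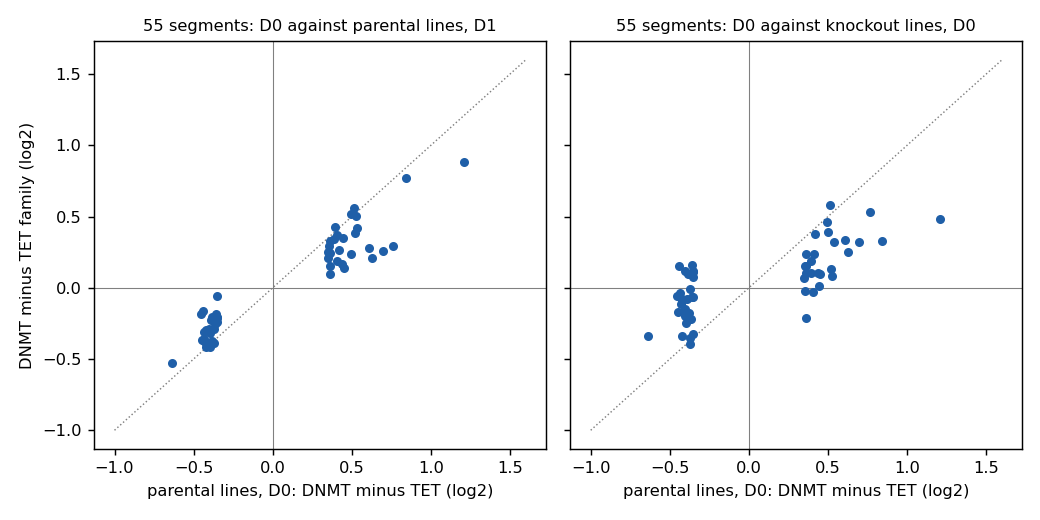
Background difference between the DNMT and TET families (log2) in the 55 segments, with the parental lines at D0 on the horizontal axis and the parental lines at D1 (left) or the knock-out lines at D0 (right) on the vertical axis; the dotted line marks equality. All 55 keep their sign at D1 and 45 in the knock-out lines. The share of all windows that do so was not counted.

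The lowest segment surrounds Eno1, the glycolytic enolase, on distal chromosome 4. In bins of 0.25 Mb the difference stayed under -0.5 over 1.0 Mb (chr4:149500001-150500000), which holds 14 protein-coding genes, among them Lzic, Ctnnbip1, Clstn1, Pik3cd, Slc25a33, Spsb1, H6pd, the hexose transporters Slc2a5 and Slc2a7, Eno1 and Rere. Relative to the mean of chromosome 4, background there was -0.03, -0.23 and -0.16 in DNMT_WT and 0.91, 0.96 and 0.71 in TET_WT. DNMT_WT is thus near its own chromosome mean, and TET_WT lies above its own.

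The interval differed by -0.99 at D0, -0.86 at D1, -1.04 at D2 and -0.68 between the knock-out lines, and its lowest bin by -1.25 at D0. TET_WT had 0.86, 0.51 and 0.68 in its D1 libraries and 0.85, 0.70 and 0.99 in those of D2, and TET_KO 0.60, 0.73 and 0.56, while DNMT libraries of both genotypes lay between -0.23 and 0.01. No parental library of one family reached the other on any day, and no knock-out library did at D0, the only day on which those were compared. In the 2 windows that make up the segment the adjusted p was at most 3.29e-05 at D0 and 2.47e-12 at D2, and at most 0.293 at D1 and 0.136 in the knock-out lines. Accessible tiles of the interval followed its background: 70 of 80 were lower in DNMT_WT, against 50.9% of all tested tiles, with a median of -0.87, against -0.01. Of the 80, 8 passed the test as lower, against 0.0939% of all tested tiles. The medians were -0.81 at D1, -0.95 at D2 and -0.67 in the knock-out lines. The promoter values of H6pd, Pik3cd and Rere above lie within it, and with background centred in 1-Mb windows, which removes such a difference, they were -1.55, -1.58 and -1.36 and no longer passed (adjusted p of 0.194, 0.173 and 0.101). Gpr1 kept its call under that centring (-2.05, adjusted p = 0.00461).

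**Figure D5:**
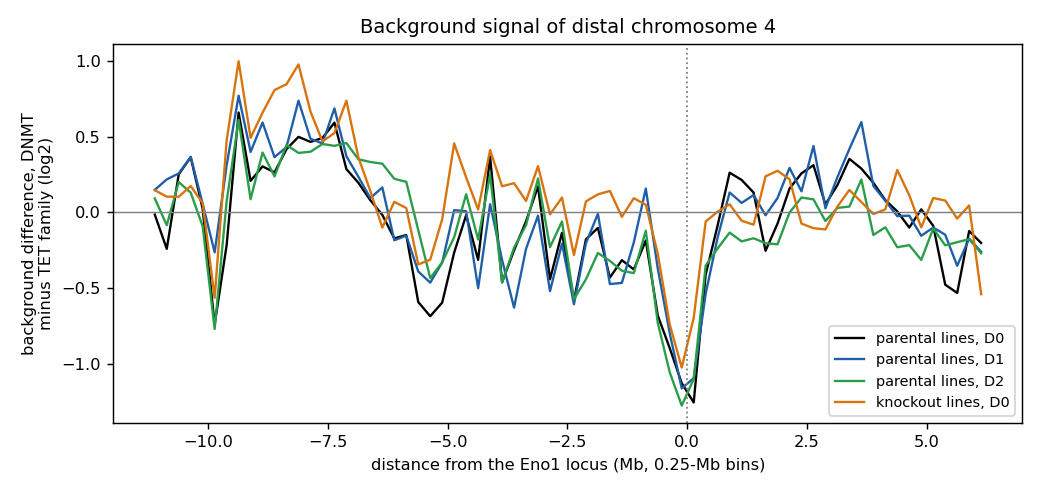
Background difference between the DNMT and TET families (log2, each library relative to its chromosome 4 mean) in 0.25-Mb bins along distal chromosome 4, by distance from Eno1 in Mb. The 4 comparisons share a trough at Eno1, with -1.25 in the lowest bin at D0, and a rise between 7 and 9.5 Mb before it.

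Farther up chromosome 4, a window with Kazn, Tmem51 and Fhad1 (chr4:142000001-143000000) was higher in DNMT_WT by 0.52 (adjusted p = 0.000519), by 0.56 at D1 (adjusted p = 0.00625), 0.43 at D2 and 0.58 in the knock-out lines (adjusted p = 0.000226). None of its 122 tested tiles passed on its own. Background there was 0.90, 0.50 and 0.63 in DNMT_WT and 0.06, 0.28 and 0.14 in TET_WT, so here DNMT_WT is the line above its chromosome. A window with Sirpb1a, Sirpb1b and Sirpb1c, signal-regulatory receptors of myeloid cells (chr3:15000001-16000000), was higher by 0.49 (adjusted p = 2.29e-05), with 0.52 at D1 (adjusted p = 0.0064), 0.55 at D2 and 0.46 in the knock-out lines (adjusted p = 0.000226). These 2 windows passed the test in all 4 comparisons.

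Of the higher segments, some chosen after their values were seen are described here by the genes they hold. The proximal end of chromosome 14 (chr14:3000001-8000000), where 71 of 80 protein-coding genes are predicted Gm genes, was higher in DNMT_WT by 1.21, and chr14:41000001-45000000, with 40 Gm genes of 60 and the eosinophil-associated ribonucleases Ear1, Ear2 and Ear10, by 0.84. Both differences are relative to chromosome 14, which as a whole was lower in DNMT_WT, and were 0.70 and 0.33 without that centring. They were 0.88 and 0.77 at D1, 1.04 and 0.81 at D2, and 0.49 and 0.33 in the knock-out lines. Neither passed limma's test in all its windows at D1 (highest adjusted p of 0.0839 and 0.0817) or in the knock-out lines (0.181 and 0.12). At D2 both did. Few reads fall there: background was -1.03 to -1.21 in DNMT_WT and -2.18 to -2.54 in TET_WT in the first. In the second it was -0.79 to -0.96 and -1.62 to -1.89. The part of depth and scaling was not tested.

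The vomeronasal receptor array (chr7:21000001-23000000, 41 Vmn genes of 51) was higher by 0.76, with 0.29 at D1. The major urinary proteins (chr4:60000001-62000000, 20 Mup genes of 20) were higher by 0.50, with 0.24 at D1, Skint5 and Skint6, epidermal T-cell selection genes, by 0.62, with 0.21, and a window with Speer1 by 0.70, with 0.26. In these 4 segments the D1 difference was under that of D0 and passed no test (adjusted p of 0.803, 0.617, 0.692 and 0.613), while at D2 all 4 passed, with 0.69 (adjusted p = 0.0328), 0.28 (0.0244), 0.54 (0.00855) and 0.72 (4.3e-05). Few reads fall there: background in single libraries of the 2 lines was 0.62 to 2.83 log2 units under the chromosome-centred library mean. The scaling and the depth of the families move with these values, and their part was not tested.

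The Mrgpr receptors of sensory neurons (chr7:47000001-49000000) were an exception, with 0.53 at D0 (adjusted p = 0.000218), 0.50 at D1 (adjusted p = 0.0497), 0.51 at D2 and 0.09 in the knock-out lines. Background was -0.09, -0.21 and -0.10 in DNMT_WT and -0.64, -0.74 and -0.60 in TET_WT. On chromosome 8, the windows of Unc5d, a netrin receptor, were higher by 0.44, with 0.35 at D1 and 0.01 in the knock-out lines, and that of Nrg1, an ErbB ligand, by 0.54, with 0.42 at D1 and 0.32 in the knock-out lines.

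Around genes, accessibility was averaged over the tested tiles up to 50 kb from each start and compared for 19565 genes. It passed the test at 7 (0.0358%), with 6 higher (0.0307%) and 1 lower (0.00511%) in DNMT_WT. The higher ones were Dclre1a (1.63), Dusp26 (1.13), Gm10406 (3.15), Gm10499 (2.07), Gm38702 (2.04) and Olfr575 (2.33), and the lower one was Nuggc (-1.37). Nuggc had -1.44 at D1 and -1.16 at D2, without passing the test (adjusted p of 0.162 and 0.149), and -1.72 in the knock-out lines, where it passed (adjusted p = 0.0067). Dclre1a had 2.29, 1.74 and 1.27 and passed in none of them (adjusted p of 0.0526, 0.0693 and 0.0777). Gm38702 and Olfr575 had the opposite sign at D1 (-0.24 and -0.42). The number of called neighbourhoods was between 0 and 1115 under other settings, and none of the 7 passed under all of them.

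No gene of the cell-state lists passed the test. The 318 genes of the 19 lists (naive, core, formative and lineage genes, imprinted and germline genes, the methylation machinery, housekeeping genes and others) gave no called neighbourhood and no called promoter, with 298 of them tested, and 57 of the 298 had an unadjusted 95% interval that left out 0, against 14.5% of all genes with an unadjusted p under 0.05. The naive list had 20 tested members with a median of -0.06, against -0.03 for all genes, and 3 of 20 whose libraries did not overlap, against 19.4% of all genes. Its promoter tiles had a median level of 1.45 log2 RPKM, against 0.33 for all gene starts. This level is the mean of the 4 groups at D0 as deposited, knock-out lines included, and not that of either parental line.

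Among naive genes, Nanog differed by -0.18 (95% interval -0.55 to 0.18), Klf4 by 0.11 (-0.26 to 0.49), Esrrb by -0.13 (-0.46 to 0.20), Zfp42 by 0.14 (-0.19 to 0.47) and Prdm14 by -0.18 (-0.53 to 0.18). No naive gene's interval left out 0, and the bound farthest from 0 in any of them was 0.62. In the core list Pou5f1 differed by 0.00 (-0.40 to 0.39) and Sox2 by -0.33 (-0.77 to 0.11).

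The genes knocked out elsewhere in the series are wild type in both parental lines by their labels, and none of their neighbourhoods was called: Dnmt1 0.28 (-0.16 to 0.72), Dnmt3a -0.18 (-0.47 to 0.10), Dnmt3b -0.09 (-0.63 to 0.46), Tet1 0.05 (-0.28 to 0.39), Tet2 0.08 (-0.21 to 0.38) and Tet3 0.23 (-0.12 to 0.58). The list medians ran from -0.31 to 0.29. The lowest was that of the housekeeping genes, with 0 of 13 higher in DNMT_WT (46.5% of all genes were higher), among them Gapdh at -0.50 (-0.85 to -0.14), and the highest that of fibroblast genes, a check for feeder cells, with 11 of 14 higher and none called.

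The lists hold a few wide differences that did not pass, named after their values were seen. Ifi202b, an interferon-inducible gene of the strain-variable list, stood at 1.70 (0.96 to 2.45), the imprinted gene Impact at -0.92 (-1.26 to -0.57), and H19, the imprinted non-coding RNA next to Igf2, at 0.73 (0.39 to 1.07). Among germline genes silenced by promoter methylation, Sycp1 stood at -1.10 (-1.80 to -0.39) and Dazl at 0.29 (-0.09 to 0.66). The median of the germline list was 0.11, with 11 of 20 higher, against 46.5% of all genes.

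Few tiles had reads in one line and none in the other. Tiles with at least 5 reads in each library of one line and none in the other numbered 96, all empty in DNMT_WT, the shallower line, and 0 the other way. With at least 10 reads required, 4 remained. Of the 96, 5 were also empty in DNMT_WT at D1, 5 at D2 and 4 in DNMT_KO. The only run of 2 adjacent empty tiles was 147.5 kb from Ell2, an RNA polymerase elongation factor. It had 7 reads in DNMT_KO at D0 and 7 and 14 in DNMT_WT at D1 and D2, summed over 3 libraries each. Why tiles were empty was not tested.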

How the data were processed

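ATAC-seq was made from 10000 cells per library with Tn5 and 13 cycles of PCR, per the labels' protocols, and the submitters' processing notes name Trim Galore 0.6.5, cutadapt 2.3, Bowtie2 2.4.1 and the build GRCm38, with no roles. The authors deposited log2 RPKM values for 1362779 tiles of the genome in 35 libraries. Whole reads were recovered from these values (100% of values at D0 were whole within 0.01 read; an empty tile is entered as 0.9 read), which gave the depths. Of 1231362 full autosomal tiles of 2000 bp, the 10% with the highest mean over the 4 groups at D0 and 5723 more tiles with a gene start were tested. The other tiles with a read at D0, 1026567, are the background. Gene starts are those of RefSeq (GRCm38.p6) for 16461 genes and the more accessible gene end, where the ends differed by 0.5 log2, for 3081. Each library's chromosomes were centred on background, tested tiles were quantile-normalised, and limma 3.58.1 (R 4.3.3) was fitted to the 12 D0 libraries with 1 mean per group (8 residual degrees of freedom, mean-variance trend), with Benjamini-Hochberg adjustment over all tested tiles. D1 and D2 were fitted likewise, D2 with 11 libraries. Tables were made in Python 3.11.15. The steps were tested on simulated data. Named tiles are the 15 largest calls in each direction with non-overlapping libraries and 30 reads or more in the higher line, 1 per gene within 100 kb, 10 promoters each way by the same rule, the longest runs of calls, and the calls that also did not overlap in the other comparisons, the last chosen after the data were seen. The members, lists and rules were chosen with earlier results of these data known. Same-numbered libraries did not deviate together (correlations of -0.06, -0.02 and -0.14, against -0.05 to 0.10 for different numbers). No pairing was therefore used, but with few reads per tile such correlations cannot exclude one. A single named tile, counted in the totals, is not reported here.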

Additional observations from a re-analysis of the deposited data

Results flagged for a closer look

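The difference between the families differed between parental and knock-out lines at 4 of 128859 tiles, by limma's test of the difference itself. Of the D0 calls, the tile 60.3 kb from Hspb3 was the 1 among them: the parental difference exceeded the knock-out one by 3.35 ± 0.53 (log2, SE; adjusted p = 0.0141).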

How the results depend on the processing

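Called tiles, 357 here, numbered 76 without quantile normalisation, 1523 without chromosome centring, 77 with equal medians, 220 with the highest 20% of tiles, 214 with no filter, 809 with RPM plus 1 on the log2 scale, 88 with thinned reads, 1595 with limma's voom, 606 with all 35 libraries, and 56 to 824 without each library in turn. In the same order, called neighbourhoods, 7 here, numbered 0, 742, 0, 64, not run for no filter, 17, 1, 1115, 309 and 0 to 51, and 729 as deposited, 0 with only the 6 parental libraries and 0 with the replicate block. Called promoters, 29 here, numbered 6, 223, 5, 15, 13, 91, 11, 216, 77 and 3 to 113. Among the fits that left out 1 library, tiles and promoters were highest without TET_WT replicate 3 and lowest without TET_WT replicate 2. Called list genes, 0 here, numbered 22 without chromosome centring, 15 as deposited, 1 with the highest 20%, 25 with voom, 8 with all 35 libraries and 0 to 3 without each library. Tiles higher in DNMT_WT were 66.1% of calls here, 34.2% without quantile normalisation, 30.6% as deposited, 87.1% with voom, 52.6% with all 35 libraries, and 41.7% to 82.0% without each library in turn. As deposited, the knock-out, D1 and D2 comparisons called 664, 14 and 1812 tiles, a setting added after the data were seen, and D0 shared 6 calls with D1 and 68 with D2. At an adjusted p under 0.01 it shared 7 with the knock-out lines, 6 with D1 and 7 with D2. Windows called were 28.6% without chromosome centring, and empty tiles 4 with a minimum of 10 reads. The replicate block gave 376 tiles. Over 112 named tiles and neighbourhoods and 2205 values under alternatives, 1370 kept their call, 835 kept the sign but not the call, and 0 changed sign. The causes were not tested. The planned edgeR test was not run, because the deposited unit is log2. Depth limits single tiles of the shallower line, with a median of 32 reads over its 3 libraries.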
